A study of Mus musculus with 32 samples.

Results

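The genes described here are the matrix metalloproteases (Mmp), the secreted proteases of the ADAMTS family (Adamts) and the tissue inhibitors of metalloproteases (Timp), followed across 32 primary mouse melanomas. All genes whose symbol is Mmp with a number, Adamts with a number, or Timp1 to Timp4 were taken, which gave 46 of the 50600 genes in the table: 23 Mmp, 19 Adamts and 4 Timp genes. Only the symbol decided whether a gene was taken, although the genes were chosen with earlier results of these data known. RNA sequencing of 8 tumours in each of 4 groups was analysed: Ecad male, Ecad female, ΔEcad male and ΔEcad female. All animals carried Tyr::NRAS Q61K, an oncogenic NRAS driven by the tyrosinase promoter and so active in melanocytes, 1 functional copy of Cdkn2a, and both alleles of Cdh1 (which encodes E-cadherin) flanked by loxP sites, on a C57BL/6J background. According to the study's methods, ΔEcad animals also carried Tyr::CreA, which deletes Cdh1 in melanocytes only, so that other cells of the same tumour kept the gene. No agent was given, ages are not given in the sources used here, and tumours were taken at end point as whole pieces of tissue.

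Metalloproteases cut the proteins around the cell. Collagenases open fibrillar collagen, gelatinases cut the denatured collagen and that of basement membranes, stromelysins cut proteoglycans and activate other family members, and the membrane-anchored enzymes act at the cell surface, where MMP14 together with TIMP2 activates MMP2. The ADAMTS enzymes cut large proteoglycans or trim procollagen. The TIMPs block the active site of MMPs, and TIMP3 also inhibits ADAMTS enzymes. In melanoma, as in other tumours, these genes are transcribed partly by the tumour cells and partly by fibroblasts, macrophages and neutrophils in the tissue.

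Of the 46 genes, 10 lie side by side on chromosome 9 between positions 7272514 and 7699585 (GRCm38): Mmp13, Mmp12, Mmp1b, Mmp3, Mmp1a, Mmp10, Mmp8, Mmp27, Mmp20 and Mmp7. Promoter sequences from RefSeq (GRCm38.p6) were matched by symbol for 32 of the 46 genes. The letters TGANTCA, where N is any base, were searched in the 250 bases before each start site. This pattern reads the same on both strands and is wider than the core site of the AP-1 transcription factor, TGACTCA or TGAGTCA. It was found for 8 of the 10 genes of the cluster and for 0 of the other 22, against 7.82% of all 27025 genes with a promoter entry. The match of Mmp20 was TGAATCA, which is not that core site. Mmp8 and Mmp27 held no match. The 60 bases around each match are shown because they are the only sequence feature searched here that set the cluster apart from the other genes, with the matching letters in capitals and the strand of the gene read 5′ to 3′. Mmp12 and Mmp7 have 2 promoter entries each, of which 1 holds a match. A match in these letters is a description and not a site.
Mmp13, chr9:7272453-7272512, plus strand: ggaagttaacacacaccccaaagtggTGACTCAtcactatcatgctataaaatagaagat
Mmp12, chr9:7347304-7347363, plus strand: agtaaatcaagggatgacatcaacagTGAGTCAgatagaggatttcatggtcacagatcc
Mmp1b, chr9:7388086-7388145, minus strand: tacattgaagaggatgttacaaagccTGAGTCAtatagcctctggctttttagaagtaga
Mmp3, chr9:7445750-7445809, plus strand: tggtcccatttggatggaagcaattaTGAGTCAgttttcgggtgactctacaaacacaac
Mmp1a, chr9:7464042-7464101, plus strand: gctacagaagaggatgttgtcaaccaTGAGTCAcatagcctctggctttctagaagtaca
Mmp10, chr9:7502253-7502312, plus strand: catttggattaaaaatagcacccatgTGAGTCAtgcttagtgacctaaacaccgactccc
Mmp20, chr9:7628110-7628169, plus strand: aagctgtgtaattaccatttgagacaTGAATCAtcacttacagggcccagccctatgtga
Mmp7, chr9:7692001-7692060, plus strand: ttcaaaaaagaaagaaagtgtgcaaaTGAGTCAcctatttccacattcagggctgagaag

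Each tumour had between 24036333 and 63923086 counted reads. Cdh1 itself did not separate the genotypes in females: its TPM (a level that takes account of gene length and library total) had a median of 30.6 in Ecad females and 46.7 in ΔEcad females, against 145 in Ecad males and 3.29 in ΔEcad males, with overlap between all groups. Keratinocyte and hair follicle genes differed between groups too, and 6 of the 7 hair follicle markers tested were called higher in ΔEcad than in Ecad females. In 4 tumours the labels or the expected cells were not fully matched by the RNA. The tumour labelled ΔEcad male 2 had 0 reads on the Y-linked genes counted and the one labelled ΔEcad female 1 had 92, where the other males had at least 1459 and the other females at most 4. Xist, an RNA of female cells, was at 6.41 TPM in ΔEcad male 2, against at most 0.2 in the other males. It was at 101 TPM in ΔEcad female 1, within the range of the other females, of which the lowest was at 8.55. The tumour ΔEcad male 7 held almost no melanocytic transcripts (Dct, a pigment enzyme, at 4.98 TPM against at least 1466 in every other tumour), and ΔEcad female 3 stood lowest in the macrophage, neutrophil and endothelial lists. The number of genes called by edgeR is therefore also given below without these tumours, whereas the other counts cover all 32.

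The inhibitors were among the most abundant of the 46 transcripts. Timp2, which inhibits most MMPs and helps MMP14 to activate MMP2, had the highest mean level, and it ranged from 253 to 752 TPM in Ecad males (median 473), from 316 to 780 in Ecad females (median 552), from 230 to 1516 in ΔEcad males (median 492) and from 211 to 1039 in ΔEcad females (median 499). The 4 groups overlapped almost completely, and Timp2 was the highest Timp gene in 30 of the 32 tumours. In 2 ΔEcad females that place was taken by Timp1, a secreted inhibitor encoded on the X chromosome, where it overlaps Syn1 on the other strand. Timp1 ranged from 17.5 to 375 TPM in Ecad males (median 120), from 9.89 to 440 in Ecad females (median 243), from 37.0 to 1082 in ΔEcad males (median 269) and from 71.2 to 2188 in ΔEcad females (median 280). The values of 1082 and 2188 belonged to ΔEcad male 7 and ΔEcad female 3, and the next highest tumours of their groups were at 449 and 397 TPM. Timp3, which binds to the matrix and also inhibits ADAMTS enzymes, had medians between 41.4 and 54.3 TPM in the 4 groups and reached 296 TPM in ΔEcad male 7. Timp4 was the scarcest inhibitor, above 1 TPM in 16 tumours, with a median of 3.12 in Ecad males (0.34 to 11.4), 0.405 in Ecad females (0.02 to 1.99), 0.385 in ΔEcad males (0.18 to 5.03) and 0.795 in ΔEcad females (0.04 to 22.4).

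**Figure D1:**
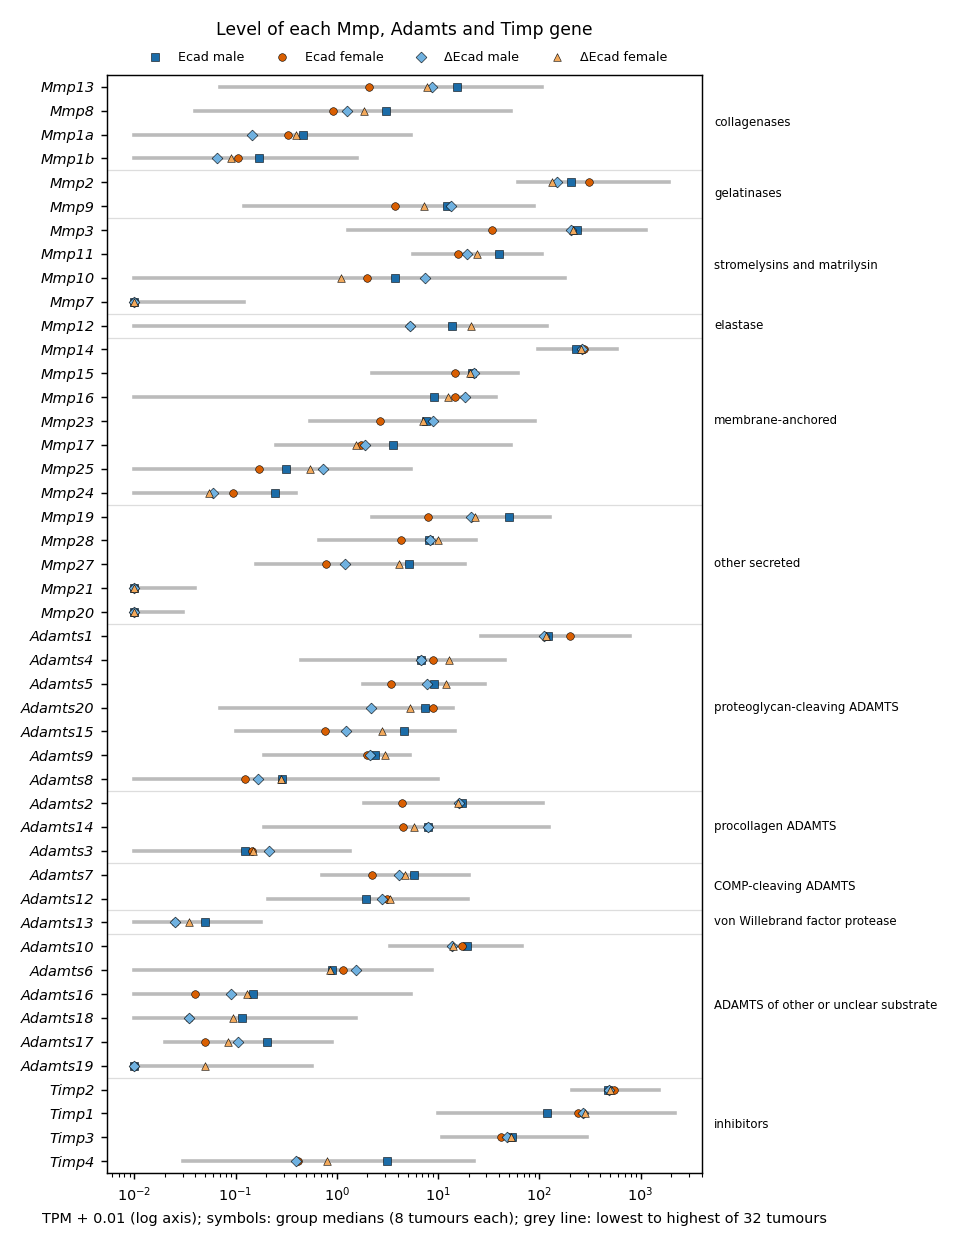
Level of the 46 genes by role, as TPM with 0.01 added on a log axis. Symbols are the medians of 8 tumours in each group and the grey line runs from the lowest to the highest of 32 tumours. Timp2, Mmp2, Timp1, Mmp14, Mmp3 and Adamts1 have the highest means, and the group medians of Timp2 and Mmp14 lie close together while those of Mmp13, Mmp3 and Timp4 are spread.

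Among the Mmp genes, 3 made up most of the transcripts: Mmp2, Mmp14 and Mmp3 held 30.5%, 26.9% and 21.6% of the summed mean TPM of the family. Mmp14, the membrane-anchored activator of MMP2 (chromosome 14, 54431612 to 54445364), was the highest Mmp gene in 14 tumours and varied least, with group medians from 230 to 277 TPM and single tumours from 96.1 to 582. Mmp2, a gelatinase (chromosome 8, 92827291 to 92853420), was highest in 9 tumours. Its group medians ran from 135 TPM in ΔEcad females and 149 in ΔEcad males to 207 in Ecad males and 307 in Ecad females, and 1 Ecad male (number 7) reached 1908 TPM where the next Ecad male stood at 322. Mmp3, stromelysin 1, was also highest in 9 tumours and spanned 1.29 to 1138 TPM, with a median of 34.5 in Ecad females and 208 to 237 in the other groups. The other gelatinase, Mmp9, had medians between 3.72 and 13.5 TPM.

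The collagenases were less abundant. Mmp13, the main collagenase of rodents, ranged from 1.82 to 71.2 TPM in Ecad males (median 15.4), from 0.06 to 51.1 in Ecad females (median 2.06), from 1.24 to 106 in ΔEcad males (median 8.74) and from 0.26 to 67.9 in ΔEcad females (median 7.82). Mmp8, the collagenase of neutrophil granules, had medians of 0.91 to 3.08 TPM and single high values in 3 groups, of 52.2 TPM in Ecad female 4, 38.4 in ΔEcad male 4 and 26.6 in Ecad male 4. Mmp1a had a mean of 0.614 TPM, and Mmp1b had 125 reads over all tumours and was not tested. Of the other stromelysins, Mmp11 had a mean of 34.3 TPM and Mmp10 one of 12.6, with 181 TPM in Ecad female 4. The macrophage elastase Mmp12 ran from 1.91 to 70.0 TPM in Ecad males (median 13.8), from 0.08 to 62.0 in Ecad females (median 5.25), from 2.19 to 120 in ΔEcad males (median 5.34) and from 0 to 36.1 in ΔEcad females (median 21.3), so that all groups overlapped. Mmp12 and Mmp1b lie on opposite strands and overlap.

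Of the other membrane-anchored enzymes, Mmp15, Mmp16, Mmp23 and Mmp17 had means of 25.7, 13.9, 11.7 and 4.87 TPM, while Mmp25 (0.775) and Mmp24 (0.118) were near the lower limit. Mmp19 (34.9), Mmp28 (8.88) and Mmp27 (4.06) completed the secreted enzymes. Mmp19 had a median of 50.5 TPM in Ecad males (11.8 to 129), 7.87 in Ecad females (2.20 to 44.9), 20.95 in ΔEcad males (7.05 to 96.5) and 23.1 in ΔEcad females (3.75 to 77.6). Mmp7 (matrilysin), Mmp20 (the enamel protease) and Mmp21 had 2, 3 and 2 reads over all tumours and were not tested, and neither were Adamts13 (67 reads), the protease of von Willebrand factor, and Adamts19 (71 reads). Mmp7, Mmp20 and Mmp21 stayed within the 3 reads that a count of 0 allows in a tumour. Adamts13 exceeded 3 reads in 2 of 8 Ecad males and reached 0.17 TPM, and Adamts19 exceeded them in 4 of 8 ΔEcad females and reached 0.56 TPM in ΔEcad female 2. Adamts13 also had 9 reads in ΔEcad male 3 and 9 in ΔEcad female 2, and Adamts19 had 7 in Ecad male 6. The other 40 genes passed the filter on low counts.

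Adamts1 alone held 68.9% of the summed mean TPM of the Adamts genes and was the highest of them in 30 tumours. This protease cuts versican and aggrecan and lies beside Adamts5 on chromosome 16 (85793827 to 85803113). It ranged from 43.6 to 276 TPM in Ecad males (median 122), from 61.4 to 779 in Ecad females (median 203), from 33.0 to 695 in ΔEcad males (median 111) and from 26.7 to 487 in ΔEcad females (median 116). Adamts10, a fibrillin-binding enzyme, took the first place in 1 tumour and had medians of 13.7 to 19.1 TPM, and Adamts14 took it in ΔEcad male 7 with 125 TPM. Among the proteoglycan-cleaving enzymes the means were 11.4 TPM for Adamts4, 9.14 for Adamts5, 5.94 for Adamts20, 3.07 for Adamts15, 2.47 for Adamts9 and 0.624 for Adamts8. Of those that trim procollagen, Adamts2 (18.5) exceeded Adamts14 (12.3) and Adamts3 (0.267). Adamts7 and Adamts12, which cut cartilage oligomeric matrix protein, had means of 5.89 and 4.20 TPM, and group medians of Adamts7 lay between 2.23 and 5.72. Adamts6 had a mean of 1.66 TPM, and Adamts16, Adamts17 and Adamts18 stayed below 0.5 TPM on average.

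The ratio of summed Timp to summed Mmp TPM varied from 0.210 to 2.53 between tumours, with a median of 0.885. By group its median was 0.630 in Ecad males, 0.926 in ΔEcad males, 1.12 in ΔEcad females and 1.18 in Ecad females, and the ranges overlapped. More generally, the 4 groups accounted for little of the variation of the median gene. The share of the variance of log2 CPM (read counts scaled to the library size after TMM normalisation) that lay between groups had a median of 10.1% over the 40 genes against 9.98% over all genes tested, while the SD over the 32 tumours had a median of 1.49 against 0.866. Some genes with a large SD had 0 reads in some tumours, such as Mmp10 (2.90) and Adamts16 (2.38). Others, such as Mmp13 (2.76) and Mmp3 (2.01), had reads in all 32. The part of low counts in the SD was not tested. Among the 40 genes the share between groups was highest for Adamts2 (32.3%), Adamts20 (31.3%) and Mmp19 (31.1%).

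The first comparison asked whether the loss of Cdh1 in melanocytes went with other metalloprotease levels in females. None of the 40 genes passed the test in ΔEcad against Ecad females, where 1.2% of the 17717 genes tested did (edgeR's quasi-likelihood test, two-sided, Benjamini-Hochberg adjusted p under 0.05 and absolute log2 fold change over 1). At an unadjusted p under 0.05, 8 genes were higher and 0 lower in ΔEcad females, against 11.2% and 4.13% of all genes in these directions. These were Adamts5, Adamts2, Adamts17, Adamts18, Adamts15, Mmp11, Mmp23 and Timp4. The groups overlapped for all 40 genes (0.0339% of all genes had groups that did not overlap), and the median log2 fold change was 0.04 over the members and -0.02 over all genes.

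The smallest p belonged to Adamts5, an aggrecan-cleaving enzyme (chromosome 16, 85856173 to 85901828). It ranged over 1.82 to 12.5 TPM in Ecad females (median 3.39), against 3.81 to 28.8 among the ΔEcad ones (median 11.9). All 8 ΔEcad females lay above the Ecad median, while 3 Ecad females reached into their range. The log2 fold change was 1.23 ± 0.43 (SE, n = 8 and 8, adjusted p = 0.119). Adamts2, which removes the amino-terminal propeptide of procollagen, showed the same arrangement: 1.85 to 30.5 TPM in the Ecad group (median 4.42) against 5.31 to 108 in ΔEcad (median 15.6), again with all 8 ΔEcad females above the Ecad median. The same held for Adamts7, Mmp15, Mmp23 and Mmp28, whose log2 fold changes were -0.10, 0.05, 1.48 and 0.75. The share of all genes with this arrangement was not counted. For Adamts2 the log2 fold change of 1.59 ± 0.57 had an adjusted p of 0.131 in edgeR. It fell to 0.89 when ΔEcad female 3, the tumour at 108 TPM, was left out. Adamts5 and Adamts2 both followed the fibroblast marker list over the tumours (below). The summed level of that list (8 of 8 markers detected) spanned 43.7 to 243 TPM among Ecad and 63.1 to 589 among ΔEcad females, and 5 of its 8 genes were higher at an unadjusted p under 0.05. With the fibroblast and macrophage scores as covariates, the log2 fold change was 0.62 for Adamts5 and 0.48 for Adamts2, neither past the threshold. The part of fibroblast content in these values was otherwise not tested.

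The other genes near the top were scarce. Timp4 had a log2 fold change of 2.81 ± 1.12 (adjusted p = 0.188, edgeR), but only 5 of 8 ΔEcad females lay above the Ecad median, and the difference rested mainly on 3 tumours, of which number 7 was at 22.4 TPM. Without that tumour it was 1.53, and with keratinocyte and melanocytic scores as covariates it turned to -0.11. Adamts18 (3.17 ± 1.26, adjusted p = 0.187, edgeR) reached 1.54 TPM in ΔEcad female 8 and stood at or below 3 reads in 5 Ecad and 3 ΔEcad females. With the same covariates its value turned to -0.20.

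In the opposite direction, Mmp10 had a log2 fold change of -2.47 ± 1.35, Mmp8 one of -1.77 ± 1.07 and Adamts1 one of -1.01 ± 0.63 (adjusted p = 0.402, 0.468 and 0.490, edgeR). The first pair rested on 1 tumour. Ecad female 4 had 181 TPM of Mmp10 and 52.2 TPM of Mmp8, where the next Ecad females had 33.3 and 4.76 TPM, and without it the values were -0.72 and 0.46. With keratinocyte and melanocytic scores as covariates, the value of Adamts1 turned to 0.47. For Mmp8 the medians ran the other way, from 0.91 TPM in Ecad to 1.85 TPM in ΔEcad females. DESeq2, run as an alternative, called 3 of the 40 genes higher in ΔEcad females, Adamts5, Adamts2 and Timp4, which is 7.5% of them against 7.23% of all genes. Timp4 was described in this comparison because of that call, after its values were seen.

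**Figure D2:**
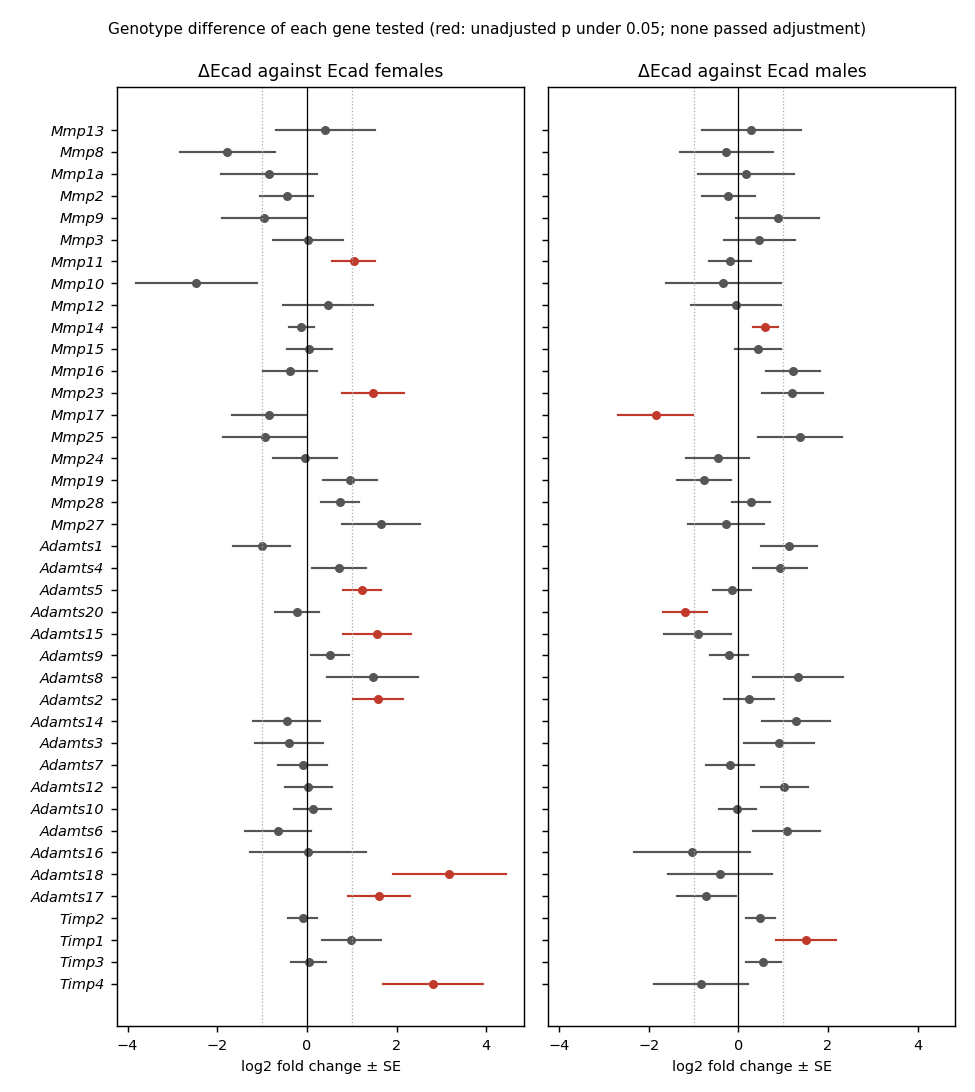
Log2 fold change of ΔEcad against Ecad for the 40 genes tested, in females (left) and males (right), with bars of 1 SE. Red marks an unadjusted p under 0.05. None passed adjustment, and the 8 red genes of the females all lie to the right of 0 while the 4 of the males lie on both sides.

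In males no gene of any kind was called between ΔEcad and Ecad tumours by edgeR (0.0% of 17717 genes), so none of the 40 was. At an unadjusted p under 0.05, Timp1 and Mmp14 were higher and Adamts20 and Mmp17 lower, 5.0% of members in each direction against 7.19% and 3.05% of all genes. DESeq2 called 0 of the 40 and 0.119% of all genes. The groups overlapped for all 40 (0.0282% of all genes did not). Timp1 had the values given above and a log2 fold change of 1.52 ± 0.67 (adjusted p = 0.453, edgeR), with 6 of 8 ΔEcad males above the Ecad median. Mmp14 differed by 0.60 ± 0.28, and Mmp16, another membrane-anchored activator of MMP2, by 1.21 ± 0.60 (adjusted p = 0.476 and 0.4934, edgeR). Mmp16 ranged from 5.61 to 12.9 TPM in Ecad males (median 9.10) and from 0 to 37.6 TPM in ΔEcad males (median 18.4), and the 0 belonged to ΔEcad male 7.

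Adamts20, which is known for its part in melanoblast development in the skin, ran from 2.40 to 10.3 TPM in Ecad males (median 7.51) and from 0.06 to 4.96 TPM in ΔEcad males (median 2.15). All 8 ΔEcad males lay below the Ecad median. The log2 fold change was -1.18 ± 0.49 (adjusted p = 0.446, edgeR). The other groups were higher than the ΔEcad males, with medians of 8.93 TPM for Ecad females and 5.32 for ΔEcad females. Mmp17 (0.86 to 52.1 TPM in Ecad males, 0.33 to 8.45 in ΔEcad males, log2 fold change -1.85 ± 0.84) depended on Ecad male 3, the tumour at 52.1 TPM, and was at -0.64 without it. Mmp19 differed by -0.76 ± 0.60, and by -0.48 to -1.17 when single tumours were left out.

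**Figure D3:**
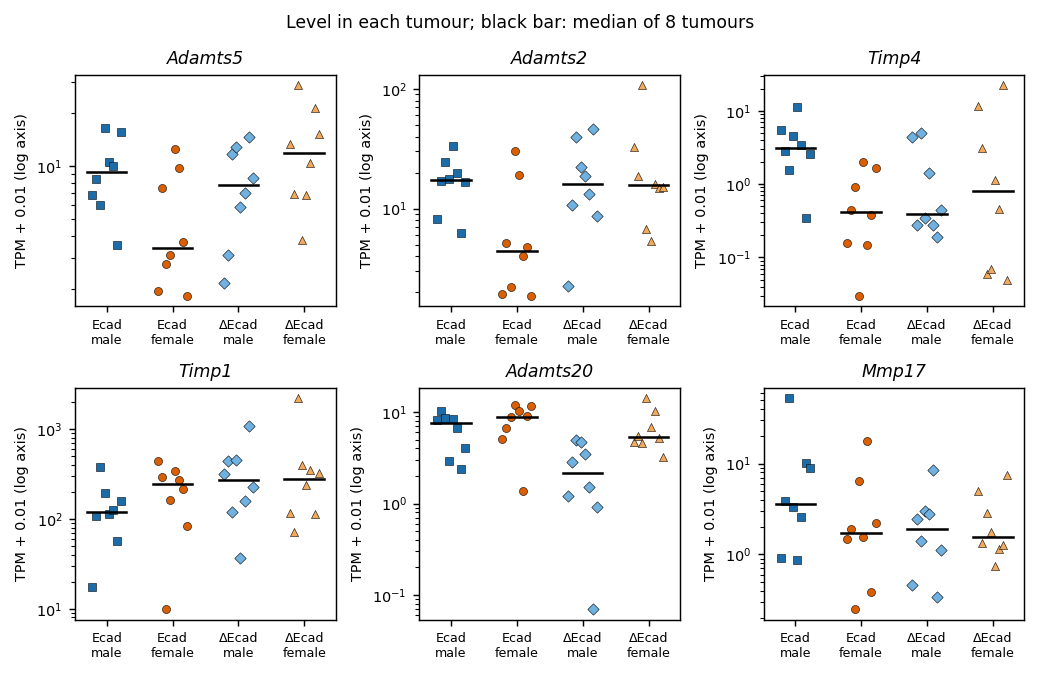
Level of 6 genes in each of the 32 tumours, as TPM with 0.01 added on a log axis, with the group median as a black bar. Adamts5 and Adamts2 lie lowest in Ecad females (medians 3.39 and 4.42), Adamts20 lies lowest in ΔEcad males (median 2.15), and 1 tumour stands above all others for Timp1 (2188 TPM) and Mmp17 (52.1 TPM).

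Between the sexes, none of the 40 genes was called in Ecad tumours (0.0508% of all genes were) or in ΔEcad tumours (0.0395%) by edgeR. In Ecad tumours 5 genes were lower in females at an unadjusted p under 0.05 (12.5% of members against 10.3% of all genes) and 1, Adamts12, was higher (2.5% against 5.71%). The groups overlapped for all 40 genes, where 0.113% of all genes did not overlap. The 3 with the smallest p were chosen for description after their values were seen. Adamts17, an enzyme of unclear substrate, was at 0.02 to 0.88 TPM in Ecad males and 0.01 to 0.12 TPM in Ecad females (log2 fold change -2.40 ± 0.70, adjusted p = 0.109, edgeR). It was near the lower limit, at or below 3 reads in 3 of 8 Ecad females and 1 of 8 Ecad males, and above 1 TPM in 0 tumours. Mmp19 had a value of -1.97 ± 0.62 (adjusted p = 0.118) and Adamts15, a versican-cleaving enzyme, one of -2.32 ± 0.78 (adjusted p = 0.137). For each of them 0 of 8 Ecad females lay above the male median. Timp4 (-2.34 ± 1.10) and Mmp11 (-1.16 ± 0.48) completed the 5. DESeq2 called Adamts17, Adamts15, Mmp19 and Mmp8 (named because of this call) lower in Ecad females, 4 of 40 against 5.77% of all genes. The Mmp8 call came after DESeq2 had replaced the count of Ecad female 4, 1120 reads, by 50, and edgeR, which kept it, gave a log2 fold change of 0.05.

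The fibroblast and keratinocyte lists moved with this comparison as well. The summed fibroblast level was 68.2 to 587 TPM in Ecad males against 43.7 to 243 in Ecad females, and the summed keratinocyte level 8.7 to 24460 against 5.21 to 1943 TPM, with 10 of 10 keratinocyte and 7 of 8 fibroblast markers lower in females. With fibroblast and macrophage scores as covariates, the value of Adamts15 was -0.40, that of Mmp19 -1.28 and that of Adamts17 -2.07. In ΔEcad tumours, Adamts20, described here after its values were seen, was higher in females at an unadjusted p of 0.00783 (log2 fold change 1.403 ± 0.49, adjusted p = 0.484, edgeR) and Adamts14 lower (-1.57 ± 0.76), 1 gene in each direction against 3.32% and 5.49% of all genes. DESeq2 called 0 of the 40 and 0.135% of all genes, and the groups overlapped for all 40 (0.00564% of all genes did not). The mean of Adamts14 was 21.4 TPM in ΔEcad males and 6.66 without ΔEcad male 7, against 7.51 in ΔEcad females. Adamts20 ranged from 3.20 to 14.1 TPM in ΔEcad females, and all 8 lay above the median of ΔEcad males.

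Whether the genotype difference itself differed between the sexes was tested as an interaction, the log2 fold change in females minus that in males. None of the 40 genes and 0.0% of all genes passed in edgeR. At an unadjusted p under 0.05 there were 5 positive and 1 negative values (12.5% and 2.5% of members, 10.7% and 6.94% of all genes). Adamts17 (2.32 ± 0.96), Timp4 (3.64 ± 1.53) and Adamts15 (2.47 ± 1.06) led the positive ones with adjusted p of 0.189, 0.196 and 0.209. Adamts1 (-2.14 ± 0.89), Mmp16 (-1.59 ± 0.85) and Mmp14 (-0.72 ± 0.39) led the negative ones with adjusted p of 0.193, 0.328 and 0.344. DESeq2 called none of the 40 here and 6.91% of all genes. With keratinocyte and melanocytic scores as covariates the values of Timp4 and Adamts1 were -0.09 and 0.03, and without ΔEcad female 7 that of Timp4 was 2.37. All 10 keratinocyte markers had positive values in the same test, with a median of 7.47.

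Averaged over the sexes, ΔEcad against Ecad tumours gave none of the 40 genes and 0.0113% of all genes in edgeR, and 0 of the 40 in DESeq2 (0.373% of all genes). The unadjusted p was under 0.05 for Mmp23 (1.34 ± 0.48, adjusted p = 0.376), Timp1 (1.25 ± 0.47, adjusted p = 0.399) and Adamts2 (0.91 ± 0.39) on the higher side, 7.5% of members against 7.25% of all genes, and for Mmp17 (-1.35 ± 0.58) on the lower side, 2.5% of members against 2.63%. Mmp23 and Timp1 were chosen for description here after their values were seen. Without ΔEcad male 2 and ΔEcad female 1, and without these and ΔEcad male 7 and ΔEcad female 3, the number of genes called remained 0 in all 6 comparisons. Without the set of 4 tumours the value of Mmp23 was 0.40 and that of Timp1 0.60, and without ΔEcad female 3 alone that of Timp1 was 0.80.

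Genes that act around these enzymes were followed in 7 lists, of which 46 of 48 genes were tested. Called genes were found only in ΔEcad against Ecad females, 2 of the 46, both higher in ΔEcad tumours. Of all genes tested, 1.2% were called in that comparison and at most 0.0508% in any other. Pcsk6, a proprotein convertase able to activate metalloproteases, ranged over 0.32 to 2.91 TPM in the Ecad group (median 1.34) and 0.33 to 20.7 in the ΔEcad group (median 8.10), a log2 fold change of 2.63 ± 0.69 (adjusted p = 0.0497, edgeR). Adamtsl3, a matrix protein of ADAMTS-like structure without protease activity, was at 0.06 to 0.43 TPM (median 0.105) and 0.20 to 20.7 TPM (median 0.535), a log2 fold change of 4.05 ± 0.89 (adjusted p = 0.0394, edgeR). Leaving out 1 tumour at a time kept the call in 11 of 32 fits for Pcsk6 and 21 of 32 for Adamtsl3, whose log2 fold change was 2.21 without ΔEcad female 3. With fibroblast and macrophage scores as covariates the adjusted p was 0.738 and 0.709, and without ΔEcad male 2 and ΔEcad female 1 it was 0.0855 and 0.0751. The other activators, other protease inhibitors, docking and clearance proteins, ADAM sheddases, matrix substrates and AP-1 factors gave 0 calls in every comparison. In females the smallest adjusted p within a list was 0.227 for Thbs2, 0.667 for Adam15, 0.192 for Vcan (versican) and 0.189 for Fos, and in males it was 0.483 for Plau, 0.365 for A2m, 0.51 for Bsg, 0.473 for Adamtsl4, 0.574 for Adam17, 0.427 for Comp and 0.56 for Fosl1 (edgeR). Of the 12 matrix substrates tested, 11 had positive log2 fold changes in females and 10 in males, against 8579 and 10470 of all 17717 genes. In both sexes 7 of the 8 fibroblast markers had positive values as well (medians 1.28 and 0.83). The part of fibroblast content in the values of the substrates was not tested.

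Because the tumours were sequenced as whole tissue, each gene was also set against marker lists of 5 cell types over the 32 tumours. In bulk RNA, fewer cells of a type and less RNA per cell cannot be told apart. A list score was the mean log2 CPM of its markers, none of which is a member. Of 200 relations, 38 passed (two-sided permutation test of Pearson's r, 100000 resamples, Benjamini-Hochberg over the 200), 32 positive and 6 negative. They involved 21 of the 40 genes. Leaving out the 2 tumours farthest from the median of each score kept 17 of the 38, and centring each value on its group mean kept 16. Some relations passed only without the 2 farthest tumours, such as those of Adamts5 and Adamts2 with the neutrophil list. No batch is named in the sources used here, so the group was the only split within which the relations could be repeated.

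The neutrophil list (S100a8, S100a9, Csf3r and others) was related to 8 genes. Mmp8 had r = 0.87 (Spearman's rho 0.83), Mmp9 r = 0.75 (rho 0.70), Mmp25 r = 0.68 (rho 0.71), Mmp13 r = 0.68 (rho 0.63) and Mmp3 r = 0.66 (rho 0.61), with permutation p between 1e-05, the smallest that 100000 resamples can give, and 5e-05, and adjusted p from 0.000667 to 0.00125. Without ΔEcad female 3 and Ecad female 4, the lowest and highest scores, r was 0.82, 0.69, 0.59, 0.62 and 0.63. MMP8, MMP9 and MMP25 are known enzymes of neutrophil granules and membranes. Adamts15 (r = 0.56) also kept its relation, whereas those of Mmp12 (0.58) and Mmp10 (0.53) did not pass without the 2 tumours. The summed level of the list ran from 1.71 TPM in ΔEcad female 3 to 9254 TPM among the Ecad females.

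The macrophage list (Cd68, Adgre1, Csf1r and others) passed for 6 genes. Mmp12 (r = 0.74, rho 0.59, adjusted p = 0.00178) and Mmp27 (r = 0.62, rho 0.70, adjusted p = 0.001) kept the relation without ΔEcad female 3 and Ecad female 6 (r = 0.55 and 0.65). MMP12 is the elastase of macrophages. Adamts15 (0.62), Mmp8 (0.57), Mmp25 (0.53) and Adamts3 (0.48) did not pass without them, at r of 0.48, 0.35, 0.49 and 0.31, where Mmp25 and Adamts15 missed the threshold narrowly (adjusted p = 0.0502 and 0.053, permutation). ΔEcad female 3, which had 0 TPM of Mmp12, is the tumour whose macrophage score of -3.22 lay far below all others.

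The fibroblast list (Pdgfra, Dcn, Lum and others) passed for the largest number of genes, 12 positive and 1 negative. Adamts15 led with r = 0.77 (rho 0.79, adjusted p = 0.000667), followed by Adamts8 (0.67), Adamts2 (0.62), Mmp9 (0.62), Mmp23 (0.60), Mmp3 (0.57), Mmp19 (0.56), Adamts5 (0.56), Mmp11 (0.50), Mmp13 (0.49), Adamts18 (0.49) and Timp3 (0.47). Without ΔEcad male 7 and Ecad female 1, Adamts15 (0.74), Adamts8, Adamts2, Mmp9, Mmp19, Adamts5, Mmp13 and Adamts18 still passed, and Mmp23, Mmp3, Mmp11, Timp3 and the negative relation of Mmp16 (-0.47) did not. After group centring only Adamts15, Adamts8 and Mmp9 passed, with r of 0.75, 0.61 and 0.57, while r was 0.47 for Adamts2, 0.45 for Adamts5 and 0.44 for Mmp19.

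**Figure D4:**
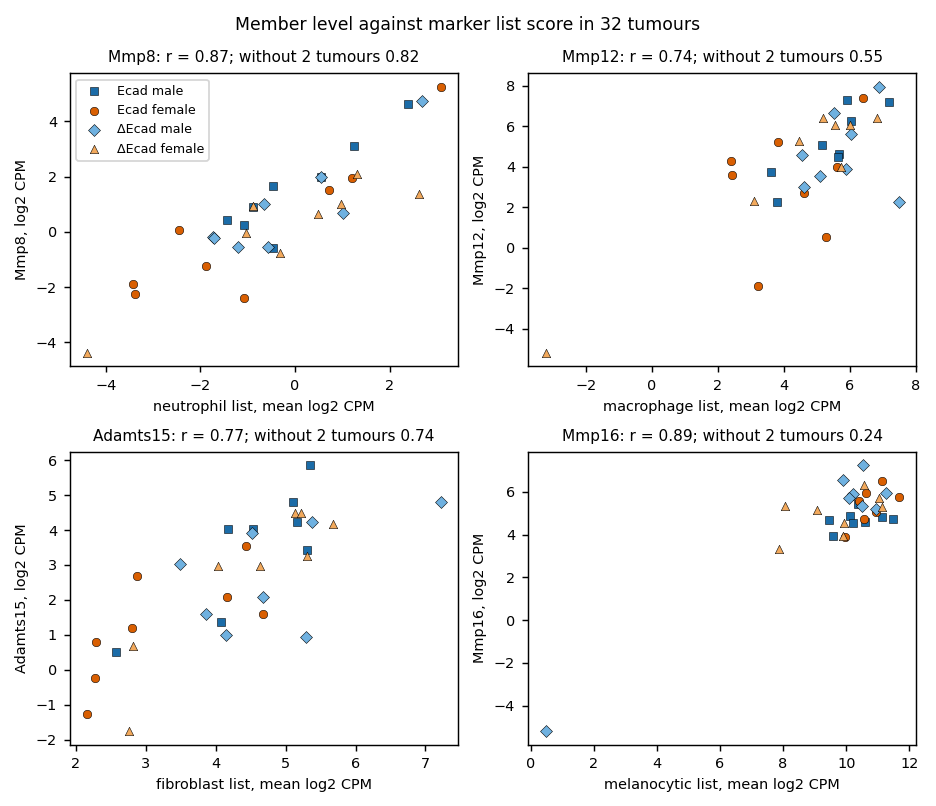
Log2 CPM of 4 genes against the score of a marker list (mean log2 CPM of its genes) in 32 tumours, marked by group. Mmp8, Mmp12 and Adamts15 have r = 0.87, 0.74 and 0.77, and 0.82, 0.55 and 0.74 when the 2 farthest tumours are omitted, whereas for Mmp16 r drops from 0.89 to 0.24.

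The melanocytic list passed for 7 genes. Mmp16 (r = 0.89, rho 0.42) and Adamts20 (r = 0.74, rho 0.23) were positively related, and both were near 0 in ΔEcad male 7, whose melanocytic score was 0.475. Without it and ΔEcad female 2, r was 0.24 and 0.16. The negative relations of Adamts8 (-0.58), Timp3 (-0.57), Adamts10 (-0.56) and Mmp23 (-0.47) did not pass without these 2 tumours either (r = -0.15, -0.19, -0.37 and -0.12), although that of Adamts10 passed after group centring (r = -0.59, adjusted p = 0.0116, permutation). That of Mmp11 passed in both cases (r = -0.52, and -0.51 without the 2 tumours). The 4 relations with the endothelial list (Mmp12, Mmp8, Adamts15 and Mmp13, r from 0.48 to 0.66) were all lost without ΔEcad female 3 and Ecad female 1. For 19 genes no list passed. They included Mmp2, Mmp14, Adamts1, Timp1 and Timp2, which are 5 of the 6 most abundant transcripts, the other being Mmp3. By Spearman, Adamts1 passed with the melanocytic list (rho 0.52, adjusted p = 0.0274, permutation).

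**Figure D5:**
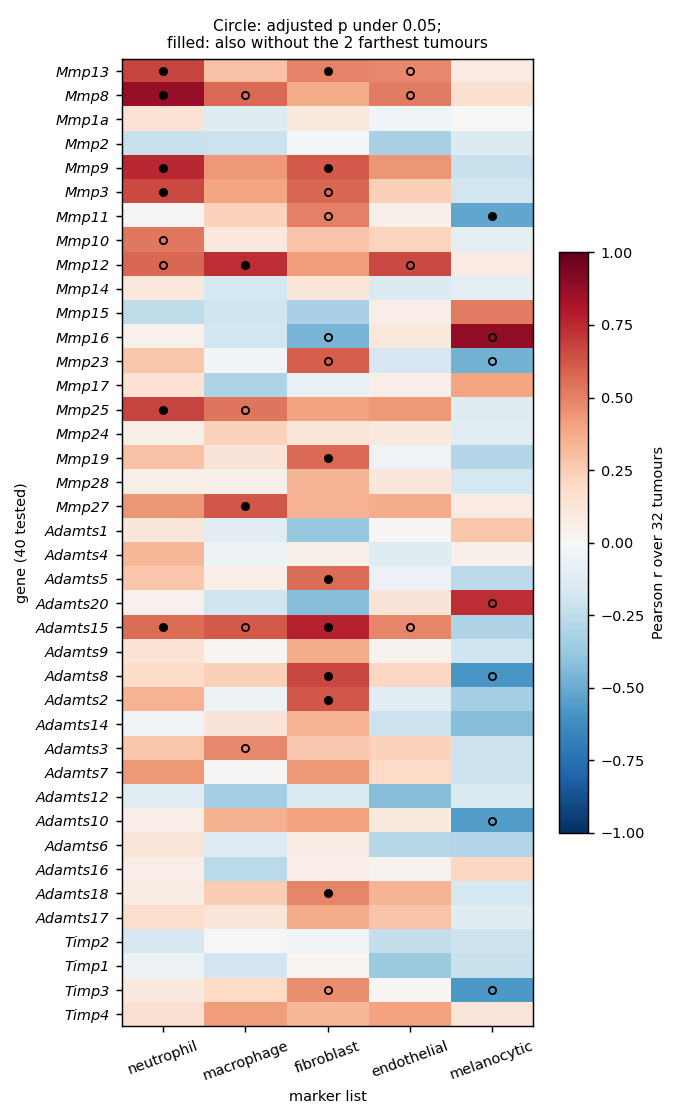
Pearson's r over 32 tumours between 40 genes (rows, ordered by role) and 5 marker lists (columns). Circles mark the 38 relations with an adjusted p under 0.05, filled where the relation also passed without the 2 tumours farthest from the median score. Filled circles are most frequent in the neutrophil and fibroblast columns.

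Finally, 14 pairs of genes known to act together or to be encoded side by side were compared over the tumours, and 6 pairs passed. Mmp8 and Mmp9, both of neutrophil granules, had r = 0.66 (rho 0.53, adjusted p = 0.0007, permutation). Mmp3 and Mmp10, which lie on either side of Mmp1a, had r = 0.58 (rho 0.54, adjusted p = 0.00322), and Mmp3 and Mmp13 had r = 0.49 (rho 0.41, adjusted p = 0.012). The latter pair did not pass after group centring (r = 0.39, adjusted p = 0.165) or by Spearman (adjusted p = 0.0525, permutation). Mmp2 was related to its activator Mmp14 (r = 0.48, rho 0.50, adjusted p = 0.012) and to Timp2 (r = 0.50, rho 0.47, adjusted p = 0.012). The last fell to r = 0.39 (adjusted p = 0.0703) once the 2 tumours with the most extreme Mmp2 were omitted. Mmp12 and Mmp13 (r = 0.52) rested on 2 tumours as well (0.28 without them). Mmp14 and Timp2 missed the threshold (r = 0.39, adjusted p = 0.0563). No relation was detected between Mmp9 and Timp1 (r = 0.12), between the neighbours Adamts1 and Adamts5 (-0.06), or in the other 5 pairs, of which Adamts4 and Adamts5 had the largest r (0.31).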

How the data were processed

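Total RNA of primary melanomas was made into stranded poly(A) libraries and sequenced in pairs. Per the labels and the study's methods, the authors aligned reads with STAR to GRCm38.p5 (mm10) with GENCODE M13 annotation. They deposited raw counts per gene and TPM values; TPM proved to be the counts rescaled by 1 length per gene to within 0.0762% in 996 highly counted genes. Whether the authors' ComBat batch correction was applied to these files is not given in the sources used here. Symbols and coordinates came from GENCODE M21 (GRCm38), with 50376 of 50600 identifiers matched.

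Counts were tested with edgeR 4.0.16 (R 4.3.3) in 1 model with a coefficient for each of the 4 groups (TMM, filterByExpr, robust quasi-likelihood F-test, two-sided), so 17717 genes were tested. Genes whose p, adjusted by Benjamini-Hochberg, was below 0.05 and whose change exceeded 1 log2 unit in either direction were called. The SE is the log2 fold change divided by the square root of F. DESeq2 1.42.0, which replaces outlying counts in groups of this size (5 counts of members), limma 3.58.1 on log2(TPM + 1), other scalings and filters, covariates and leaving out tumours were the alternatives. Relations used log2 CPM with a prior count of 1 and permutation tests in Python 3.11.15 with numpy 2.4.6, and the scripts were tested on simulated data. Samples were grouped by their titles. Each sample is a tumour of its own, but nothing says that no animal gave more than 1. Of the 46 genes, 22 overlap another gene, 2 of them on the same strand, and the strand setting of the counting is not given in the sources used here. The 46 genes, role classes, marker lists and pairs were chosen with earlier results of these data known. Genes named with values were the 4 Timp genes, the highest of each role class, and the 3 with the smallest p in each direction in both genotype comparisons and the interaction; others are said to be chosen later. A value of a related gene is not reported here.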

Additional observations from a re-analysis of the deposited data

Results flagged for a closer look

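A tumour far from the others of its group was looked for in 96 sets of 8 values (log2 CPM of the genes described, Dixon's test at 95%), and 7 were found, where chance gives about 1 in 20. ΔEcad male 7 was low for Adamts20 (log2 CPM -2.37, 0.06 TPM against 0.9 in the next tumour) and for Mmp16 (-5.19, 0 TPM against 6.52), and this is the tumour with almost no melanocytic transcripts. ΔEcad female 3, with the lowest macrophage and neutrophil scores, was low for Mmp12 (-5.19, 0 TPM against 1.72) and Mmp8 (-4.38, 0.03 TPM against 0.7). Ecad male 7 was high for Mmp2 (11.13, 1908 TPM against 322). Ecad female 3 was low for Timp1 (1.95, 9.89 TPM against 82.3), and Ecad female 4 for Timp2 (8.54, 316 TPM against 479.6), a tumour that also had the highest log2 CPM of Mmp3, Mmp8, Mmp10, Adamts6 and Adamts7 of all 32. The TPM given second is that of the next tumour of the group in TPM. What sets these tumours apart was not tested.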

How the results depend on the processing

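The number of genes called stayed at 0 under every alternative in 4 of the 6 comparisons. In ΔEcad against Ecad females it was 3 with DESeq2 and between 0 and 1 when single tumours were left out (Adamts5 without Ecad female 5). Between female and male Ecad tumours it was 4 with DESeq2. The relations that passed numbered 16 with values centred on their group mean and 24 without the 2 farthest tumours, against 38. Replicate numbers did not pair the tumours: over 48 same-numbered pairs the deviations from group means had a mean correlation of -0.0002 and 1 of 32 tumours was closest to its own number. A replicate block left every count at 0. Of 1108 alternative log2 fold changes for the 26 described, 19 changed sign. With keratinocyte and melanocytic scores as covariates, Adamts18 (-0.20), Timp4 (-0.109) and Adamts1 (0.47) did so in females, and Timp4 (-0.0894) and Adamts1 (0.0274) in the interaction. Mmp8 did so in females with DESeq2 (0.45), the replicate block (0.15) and without Ecad female 4 (0.46), with a range of -2.12 to 0.46 over single tumours left out. Its value between the sexes in Ecad tumours, 0.05, was -2.17 with DESeq2, -0.68 with limma, -0.90 with the block, -0.41 with those covariates, and between -2.18 and 1.09 without single tumours. The median log2 fold change of all genes between ΔEcad and Ecad males was 0.11 with TMM and -0.16 with limma on TPM, and in the interaction -0.16 and 0.18. Fibroblast and macrophage covariates and leaving out the doubted tumours were chosen after seeing the data. For every change of sign the cause was not tested.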
